A study of Equus caballus with 4 samples.

Results

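The constitutive proteasome subunit genes encode the standing parts of the proteasome, the protease complex that degrades ubiquitin-tagged proteins. They were taken as every gene on a horse microarray whose name in the files was PSM, a letter from A to G and a number, leaving out the immunoproteasome genes PSMB8, PSMB9 and PSMB10. The rule used names only and found 42 of the 24998 gene names carried by non-control probes. These 42 genes had 78 probes. They comprised 7 alpha ring genes (PSMA), 8 beta ring genes (PSMB), 6 ATPase genes (PSMC), 13 other regulatory particle genes (PSMD), 4 activators (PSME), the inhibitor PSMF1 and 3 assembly chaperones (PSMG).

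The cells were primary equine satellite cells (ESC), the muscle stem cells, grown from the semitendinosus muscle of healthy colts 6 months old and induced to differentiate in medium with little serum. The leucine metabolite HMB (β-hydroxy-β-methylbutyrate) was given after day 2 of differentiation and the cells were harvested 24 h later, on day 3. Control cells stayed in the same medium without HMB. Each of 4 two-colour arrays carried an HMB-treated sample in Cy5 and a control sample in Cy3, and the labels call the 4 arrays biological replicates. The labels give the amount of HMB as 50 µg with no volume, whereas the study's methods give it as a micromolar concentration. The descriptions name the treated channel GO-treated, and the titles and source names, which say HMB, were followed. The sources used here do not say which colt was on which array. The dyes were never swapped, so a dye effect and a treatment effect cannot be told apart for any gene. All 4 arrays lay on 1 slide and shared 1 scan.

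The proteasome core is a barrel of stacked alpha and beta rings, and PSMB5, PSMB6 and PSMB7 carry its peptidase sites. A regulatory particle of ATPase and non-ATPase subunits recognises ubiquitin chains, removes them and threads the protein into the core, and separate activators can open the barrel in its place. In muscle, the ubiquitin and proteasome system is the main route by which myofibrillar proteins are broken down, and HMB has been studied as a supplement that spares muscle protein.

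The labelled cell type was set against marker lists that were chosen with earlier results of these data known. Of 7 satellite cell and myoblast markers, 4 had a probe under their name (MYF5, MYOD1, DES and NCAM1), and all 4 were well above background. The same held for all 7 markers of differentiating muscle that were on the array, among them MYOG, MYH3 and ACTA1. PAX7, the classical satellite cell marker, had no probe of that name. No endothelial (0 of 4) or adipocyte marker (0 of 3 on the array) was well above background on all arrays. Of the 5 leukocyte markers on the array, CD14 and CD68 were, whereas CD3E, CSF1R and AIF1 were not. Of 8 fibroblast markers on the array, 7 were.

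These markers moved with HMB. All 4 satellite cell and myoblast markers and all 7 markers of differentiating muscle passed the test as lower, with list medians of -0.94 and -0.98 on the log2 scale. The median of the differentiating muscle list was -0.43, -0.88, -1.06 and -1.37 on arrays 1 to 4. PDGFRA and FAP, markers of fibroblasts, passed as higher (mean log2 ratios 1.53 and 0.42), but the other 5 tested fibroblast markers did not pass. COL1A2, COL3A1 and THY1 averaged -0.20, -0.21 and -0.10, and DCN and LUM 0.15 and 0.0071. The median of the fibroblast list was 0.0071, and 0.33, 0.08, 0.04 and -0.08 on arrays 1 to 4. The part of these shifts in the proteasome values was not tested, and in such bulk RNA fewer cells of a type and less RNA per cell cannot be told apart.

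Of the 42 genes, 40 could be tested, each by its brightest tested probe. The unit throughout is the log2 ratio, HMB over control, so that a value below 0 means less RNA in HMB-treated cells. PSMB11, the thymus form of a beta subunit, was well above background on no array, and PSMA8, the testis form of an alpha subunit, on 3 of 4. A gene passed when the adjusted P value of the limma fit, over all 27384 tested probes, was at most 0.05.

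PSMD12, PSME2 and PSME4 fell in HMB-treated cells, and no subunit gene rose. Thus 3 of 40 passed as lower (7.5%), beside 11.6% of the 15614 genes tested in the same way, and 0 of 40 passed as higher, beside 10.9%. At an unadjusted P of 0.05 in the same limma fit, 2 were higher and 6 lower, where 20.0% and 18.0% of all tested genes were higher and lower. With the methods' t-test, 0 passed as higher and PSMD6 alone as lower (1 of 40), where 1.17% and 1.46% of all tested genes were higher and lower. Counted by probe, 9 of 76 tested member probes passed as lower and 0 as higher, beside 11.6% and 11.2% of all tested probes. In the limma fit of the deposited ratios these shares lie near or below those of the array as a whole.

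PSME2 encodes the beta subunit of PA28, an interferon-inducible activator that caps the core in place of the ATPase particle. Its log2 ratios were -0.43, -0.21, -0.70 and -0.55 on arrays 1 to 4. All 4 were below 0, with array 2 nearest to it. The mean was -0.47 ± 0.21 (SD, n = 4), which is 1.39-fold lower, and the adjusted P was 0.0164. PSME4 encodes PA200, a large single-chain activator of the core. It read -0.28, -0.20, -0.41 and -0.46, with every array below 0 and a narrower spread than PSME2. Its mean was -0.34 ± 0.12 (SD, n = 4), 1.26-fold lower, with an adjusted P of 0.0197. PSMD12 encodes Rpn5, a lid subunit. It read -0.13, -0.24, -0.37 and -0.54. All arrays were again below 0, and the values ran steadily down from array 1 to array 4. The mean was -0.32 ± 0.17 (SD, n = 4), 1.25-fold lower, with an adjusted P of 0.0368.

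The probes that measured these 3 genes are shown because the decreases rest on them. Each is a 60-base probe placed by the array files on build EquCab1. The PSMD12 probe lies on chromosome 11 (chr11:13043774-13043833, minus strand), the PSME4 probe on chromosome 15 (chr15:42853537-42853596, plus strand) and the PSME2 probe on unplaced sequence (chrUn:180679374-180679433, plus strand).
PSMD12: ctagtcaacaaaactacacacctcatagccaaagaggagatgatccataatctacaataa
PSME4: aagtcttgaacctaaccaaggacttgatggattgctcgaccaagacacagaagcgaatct
PSME2: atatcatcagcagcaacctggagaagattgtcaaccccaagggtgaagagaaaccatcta
PSME4 had no second probe. The other PSMD12 probe, which lies beside the first without overlap, averaged -0.34 and also passed. The 5 PSME2 probes averaged between -0.50 and -0.46 and all passed, but they overlap each other almost fully and are not independent measurements.

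The calls depended on single arrays and on the dye normalisation. Without array 1 the same 3 genes passed, without array 2 PSME2 and PSMA4 did, and without array 3 none did. Without array 4, PSME2 and PSME4 passed as lower and PSMD10 as higher. Of all tested genes, 9.62%, 5.66%, 5.51% and 9.67% were lower without arrays 1 to 4 in turn, and 7.51%, 3.3%, 4.25% and 7.92% higher. Where the ratios were only centred on their median after background correction, with no lowess curve, 0 subunit genes passed as lower and 12 of 40 as higher, where 5.76% and 18.9% of all tested genes did. Of those 12, 5 were ATPase genes. That scaling moved the median of all tested genes from 0.02 to 0.13 and the share of calls that were higher from 48.5% to 76.7%. Relative to the median of all genes, PSME2, PSME4 and PSMD12 stood at -0.49, -0.36 and -0.34 with the deposited ratios and at -0.20, -0.20 and -0.24 without lowess. With normexp and loess they stood at -0.53, -0.36 and -0.35, and 7 of 40 subunit genes passed as lower, beside 12.3% of all tested genes.

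**Figure D1:**
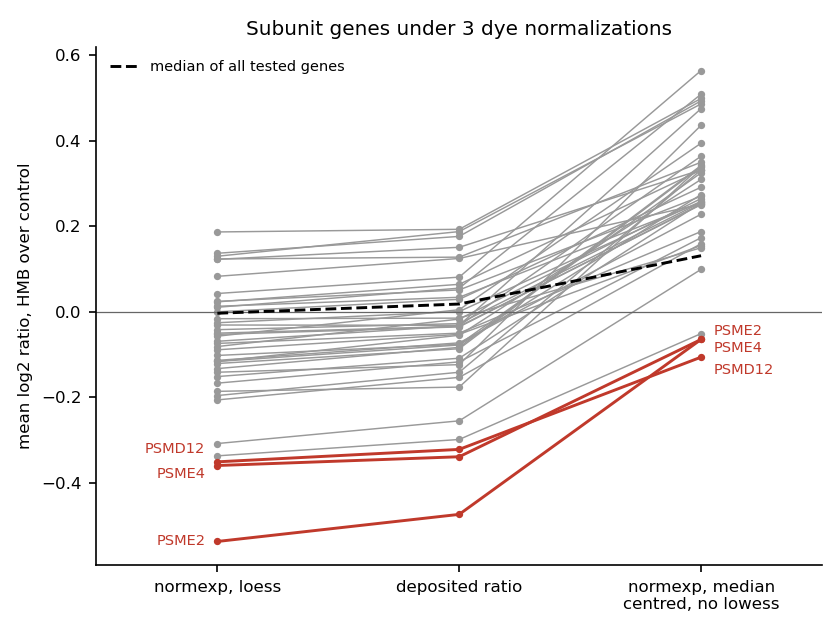
Mean log2 ratio (HMB over control, 4 arrays) of the 40 tested subunit genes under 3 dye normalisations, a line per gene, with PSMD12, PSME2 and PSME4 in red and the median of all tested genes dashed. Without lowess 36 of the 40 genes lay above 0, whereas 26 lay below 0 with the deposited ratios, and the 3 red genes stayed below the dashed line in each.

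Most subunit genes differed little between HMB-treated and control cells. The median of the 40 mean ratios was -0.03, beside 0.02 for all tested genes, and their middle range (lower to upper quartile) ran from -0.11 to 0.04, beside -0.13 to 0.16. A mean within 0.2 of 0 was found for 35 of 40 subunit genes (87.5%) and for 62.1% of all tested genes. The means had an SD of 0.15 among the subunit genes and of 0.34 among all tested genes. The spread between arrays was also narrower, with a median SD of 0.12 for the subunit genes and 0.16 for all. Under the scaling with no lowess the median of the subunit genes was 0.27, which is 0.14 above that of all genes, in place of 0.05 below it.

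**Figure D2:**
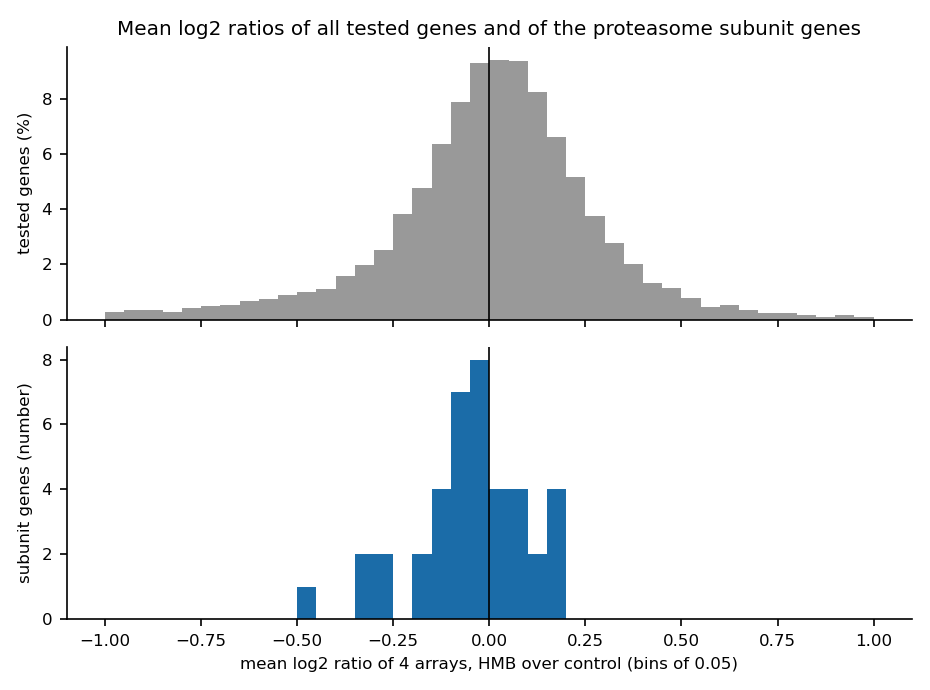
Histograms of the mean log2 ratio (HMB over control, bins of 0.05) for all tested genes, as a percentage, and for the 40 subunit genes, as a number. The subunit genes spanned -0.47 to 0.19, and 1.68% of all tested genes lay outside the range plotted.

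Array by array, the median over the 40 genes was 0.03, -0.01, -0.07 and -0.09, whereas the median over all tested genes stayed between 0.01 and 0.03. Of the 40, 19, 23, 28 and 29 were below 0 on arrays 1 to 4. The arrays thus differed in sign for the group as a whole, and array 1 stood on the other side of 0 from arrays 3 and 4. Below 0 on every array were PSMA3, PSMB6, PSMB7, PSMD1, PSMD6, PSMD12 and the 4 PSME genes (10 of 40, beside 21.4% of all tested genes). PSMC5, PSMC6, PSMG1 and PSMG3 were above 0 on every array (4 of 40, beside 24.4%).

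**Figure D3:**
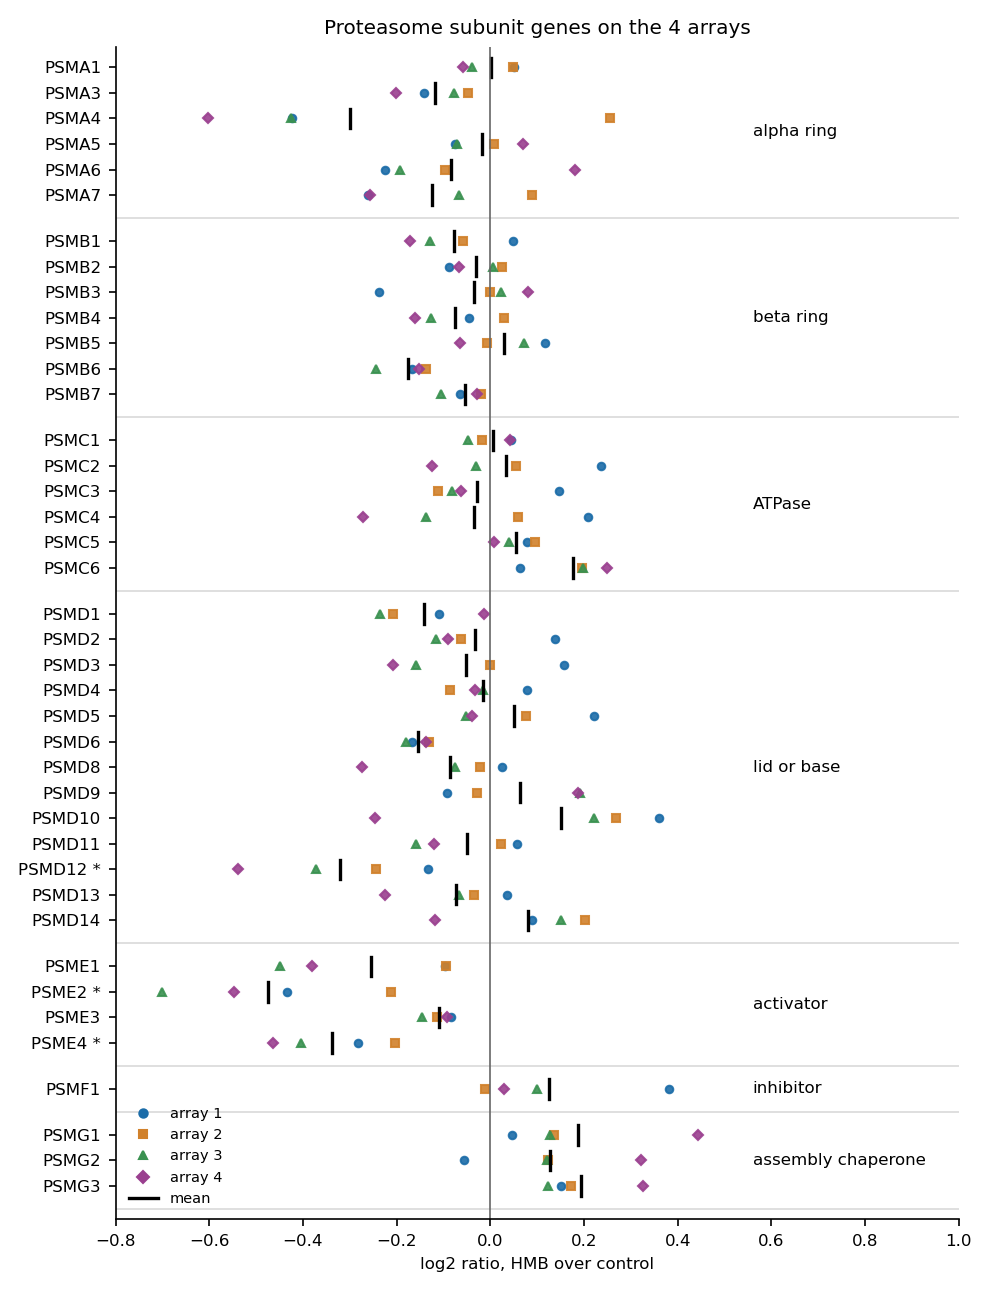
Log2 ratio (HMB over control) of each tested subunit gene on each of the 4 arrays, grouped by role, with the mean as a black bar and an asterisk on the 3 genes that passed the test. The 4 activators lay below 0 on every array, and the means of the 3 assembly chaperones were all above 0.

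In the core particle, no gene of either ring passed. The alpha ring, whose outer face gates entry to the barrel, had 6 tested genes with a median of -0.10. PSMA1 had the highest mean, 0.0006, with arrays at 0.05, 0.05, -0.04 and -0.06. PSMA4 had the lowest mean of the ring, with arrays at -0.42, 0.26, -0.43 and -0.60. Array 2 therefore lay above 0 and the other 3 well below it. The mean of -0.30 had an SD of 0.38, the widest of all 40 genes, and the adjusted P was 0.175. Without array 2 the mean was -0.48 and PSMA4 passed. PSMA3, PSMA5, PSMA6 and PSMA7 had means between -0.12 and -0.02.

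The beta ring, which holds the peptidase sites, had 7 tested genes with a median of -0.05 and means from -0.18 to 0.03. PSMB5, the chymotrypsin-like subunit, read 0.12, -0.01, 0.07 and -0.06, on both sides of 0. Its mean was 0.03 ± 0.08 (SD, n = 4), with a 95% interval from -0.12 to 0.18. PSMB6, the caspase-like subunit, read -0.17, -0.14, -0.25 and -0.15. It was below 0 on all arrays with little spread, and its mean of -0.18 ± 0.05 (SD, n = 4) had an adjusted P of 0.0763. It passed as lower with an intensity trend and robust prior, with normexp and loess and with no filter on dim probes. PSMB7, the trypsin-like subunit, read -0.07, -0.02, -0.11 and -0.03 and averaged -0.05 ± 0.04 (SD, n = 4). The means of PSMB6 and PSMB7 turned to 0.34 and 0.31 without lowess. The structural subunits PSMB1, PSMB2, PSMB3 and PSMB4 had means from -0.08 to -0.03.

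PSMB2 was the only gene whose probes gave different calls. Its brightest probe averaged -0.03 and did not pass, whereas the other probe, on nearby sequence of the same chromosome, read -0.29, -0.22, -0.24 and -0.31 and passed with an adjusted P of 0.0237. The probes differed by -0.20, -0.24, -0.25 and -0.25 on the 4 arrays, a mean of -0.235 ± 0.02 (SD, n = 4). The difference had the same sign and nearly the same size on every array. No P value is given for it, because the pair was picked for that difference. These values are from the deposited ratios. Without lowess the brightest PSMB2 probe averaged 0.48 and passed as higher.

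**Figure D4:**
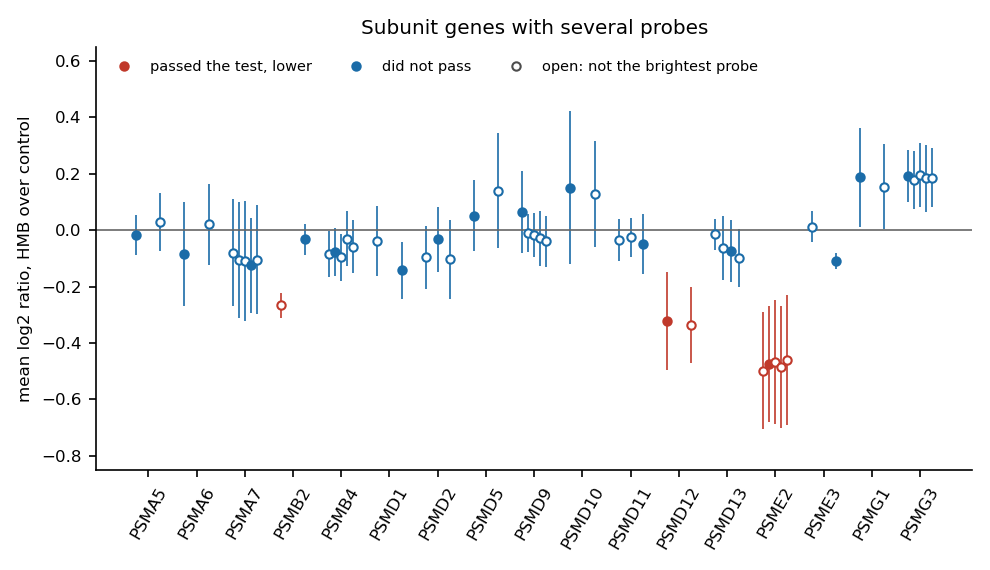
Mean log2 ratio (HMB over control) and SD over 4 arrays for each tested probe of the 17 subunit genes with several probes, red where the probe passed as lower and filled for the brightest probe. The probes of PSME2 and PSMD12 lie together below 0, and the PSMB2 probes lie furthest apart.

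Across the 17 genes with several tested probes, 16 had the same call from every probe, and 13 had the same sign. The range between probes of a gene had a median of 0.07. In 7 of the 17 genes every probe overlapped another, so that those probes share sequence. PSMA5, PSMA6, PSMD9 and PSME3 had probes on both sides of 0, all of them small and none past the test.

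The ATPase ring, which unfolds substrates, had 6 genes, and none passed with the deposited ratios. Its median was 0.02, and the median by array was 0.11, 0.06, -0.04 and -0.03. PSMC6 had the highest mean, with arrays at 0.06, 0.20, 0.20 and 0.25. All were above 0, and the mean of 0.18 ± 0.08 (SD, n = 4) had an adjusted P of 0.09. PSMC4 had the lowest mean, -0.04, from arrays at 0.21, 0.06, -0.14 and -0.27. The arrays thus fell on both sides of 0. PSMC1, PSMC2, PSMC3 and PSMC5 had means from -0.03 to 0.06. Without lowess the 6 means ran from 0.25 to 0.51, and all but PSMC3 passed as higher.

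The 13 PSMD genes had a median of -0.05, and PSMD12 alone passed. Their roles differ, and they were split by textbook role after their values had been seen. The 7 lid genes, which include the deubiquitinase PSMD14, had a median of -0.07 and 6 of 7 means below 0. On arrays 1 to 4 the lid median was 0.04, -0.02, -0.16 and -0.21. PSMD6, another lid gene, read -0.17, -0.13, -0.18 and -0.14. It varied little (mean -0.15, SD 0.02) and had an adjusted P of 0.1 in the limma fit, but passed in the methods' t-test, with normexp and loess and with no filter on dim probes. Without lowess its mean turned to 0.16. PSMD14 averaged 0.08, the only lid mean above 0. The base scaffolds PSMD1 and PSMD2 averaged -0.14 and -0.03, and the ubiquitin receptor PSMD4 averaged -0.01.

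PSMD5, PSMD9 and PSMD10 are chaperones that help assemble the ATPase base and are not part of the finished particle. Their means were 0.05, 0.06 and 0.15 by the brightest probe. The other 4 PSMD9 probes averaged between -0.04 and -0.0088, on the other side of 0. PSMD10, also called gankyrin, had the highest mean of the PSMD genes and read 0.36, 0.27, 0.22 and -0.25. Array 4 went the other way from the other 3, and the adjusted P was 0.35. Without array 4 the mean was 0.28 and PSMD10 passed as higher.

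The 3 chaperones of core assembly under the naming rule had means above 0, and none passed in the limma fit of the deposited ratios. A further assembly chaperone outside the rule, given under other observations, was below 0 on average. PSMG1, PSMG2 and PSMG3 help to build the alpha ring. PSMG3 read 0.15, 0.17, 0.12 and 0.33, above 0 on every array, with a mean of 0.19 ± 0.09 (SD, n = 4) and an adjusted P of 0.0772. It passed as higher with an intensity trend and robust prior and without lowess. PSMG2, the lowest of the 3, read -0.06, 0.12, 0.12 and 0.32 and averaged 0.13. PSMG1 averaged 0.19, with 0.44 on array 4. Array 4 was the highest for all 3 genes. POMP, the maturation factor of the beta ring, is not a PSM gene but was on a list of associated genes. It read 0.02, 0.18, 0.18 and 0.44, averaged 0.20, and did not pass.

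The activators lay lowest of the classes, with a median of -0.30 over 4 genes, and the brightest probe of all 4 was below 0 on every array. PSME2 and PSME4 passed, as given above. PSME1 encodes the alpha subunit of PA28 and partners PSME2. It read -0.10, -0.09, -0.45 and -0.38. All were below 0, with arrays 3 and 4 further down, and the mean of -0.26 ± 0.19 (SD, n = 4) had an adjusted P of 0.077. PSME1 passed as lower with an intensity trend and robust prior and with normexp and loess. A further probe described as PA28 alpha, given under other observations, averaged -0.11 and did not pass. PSME3 encodes PA28 gamma, a nuclear activator that interferon does not induce. It read -0.08, -0.11, -0.15 and -0.09 and averaged -0.11 ± 0.03 (SD, n = 4), with an adjusted P of 0.214. PSME3 passed as lower only with no filter on dim probes (limma adjusted P 0.044). Its other probe averaged 0.0130 and was above 0 on 3 of 4 arrays. PSME1 and PSME3 turned to 0.10 and 0.25 with no lowess, whereas PSME2 and PSME4 remained below 0 at -0.06 each without passing. PSMF1, the inhibitor PI31, read 0.38, -0.01, 0.10 and 0.03. Array 1 set much of its mean of 0.12 ± 0.18 (SD, n = 4), and it did not pass (adjusted P 0.313).

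The constitutive catalytic subunits were compared with their immunoproteasome counterparts, which replace them after interferon exposure. The pairs are PSMB8 for PSMB5, PSMB9 for PSMB6 and PSMB10 for PSMB7. Probes of PSMB5, PSMB7 and PSMB8 are shown to identify what was measured, since the pairs are members of the same gene family. On EquCab1 the PSMB7 probe lies on chromosome 25 (chr25:10283174-10283233, plus strand). The PSMB5 probe (chrUn:181516299-181517072, plus strand) and the PSMB8 probe (chr20:26852202-26852418, minus strand) span 774 and 217 bases of the genome with 60 bases each, so that both cross an intron.
PSMB5: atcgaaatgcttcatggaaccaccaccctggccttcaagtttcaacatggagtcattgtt
PSMB7: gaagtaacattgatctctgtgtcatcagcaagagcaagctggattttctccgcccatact
PSMB8: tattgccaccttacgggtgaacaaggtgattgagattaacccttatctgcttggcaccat

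PSMB8 and PSMB9 passed as lower, with mean ratios of -0.94 and -0.82 (adjusted P 0.0184 and 0.00342), whereas PSMB10 averaged -0.06 and did not pass. The PSMB8 call was lost without array 3, in the methods' t-test, without pairing and with no filter on dim probes, and its mean was -0.64 with normexp and loess and -0.60 with normexp and no lowess. The PSMB9 call was lost in the methods' t-test only, among 15 alternatives. PSMB8 minus PSMB5 was -0.67, -0.44, -1.30 and -1.45 on arrays 1 to 4, a mean difference of -0.97 ± 0.49 (SD, n = 4). PSMB9 minus PSMB6 was -0.73, -0.40, -0.77 and -0.68, a mean difference of -0.64 ± 0.17 (SD, n = 4). In both pairs the immunoproteasome gene was lower on all 4 arrays. Each had an exact two-sided sign-flip permutation P of 0.125, the smallest this test can give with 4 arrays. PSMB10 minus PSMB7 was 0.04, 0.13, -0.03 and -0.14, on both sides of 0, with a mean of -0.0015 and an exact permutation P of 1.

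**Figure D5:**
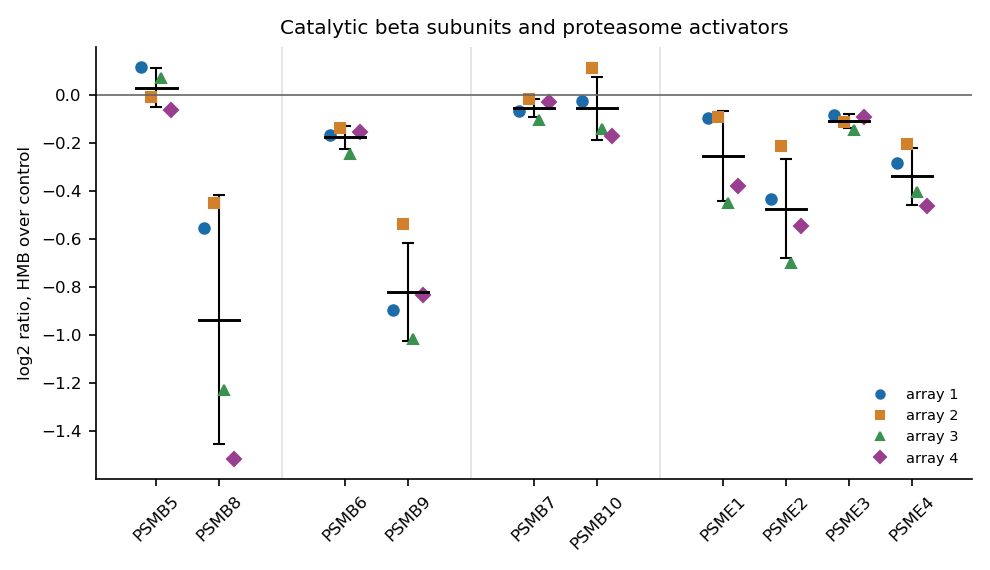
Log2 ratios (HMB over control) on each array of the constitutive catalytic subunits beside their immunoproteasome counterparts, and of the 4 activators, with bars for the mean and whiskers for the SD of 4 arrays. PSMB8 and PSMB9 lie below PSMB5 and PSMB6 on every array, PSMB7 and PSMB10 overlap, and PSME2 is the lowest activator.

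The position of the genes was not used by the rule. On EquCab1 the probes of PSME1 and PSME2 lie 3421 bases apart, and both genes were below 0 on every array. PSMB5 and PSMB11 lie 5300 bases apart, and only PSMB5 was measurable. PSMB4 and PSMD4 are neighbours at 177.48 kb, with means of -0.08 and -0.01. The distances of these pairs are between positions on unplaced sequence (chrUn), not on a named chromosome. PSMB8 and PSMB9, which both fell, lie 15187 bases apart on chromosome 20.

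Genes that work with the proteasome were counted from a list that was chosen with earlier results of these data known. Of its 36 genes, 30 had a probe under their name and 29 were tested. Of these, 2 passed as higher and 6 as lower, 21 did not pass, and the median was 0.01, beside 10.9% higher, 11.6% lower and a median of 0.02 for all tested genes. Without the 3 immunoproteasome genes, 2 of 26 were higher and 4 lower.

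Among the bound factors, KIAA0368, which encodes the adaptor ECM29, read -0.22, -0.26, -0.26 and -0.30 and fell by 0.26 on average (adjusted P 0.0236). ZFAND5, a zinc finger protein that binds the proteasome in muscle atrophy models, read -0.15, -0.19, -0.30 and -0.41 and fell by 0.26 (adjusted P 0.0399). Both were below 0 on all 4 arrays, and both stood above 0 without lowess, at 0.09 and 0.03. The ZFAND5 call was lost whichever array was left out, without pairing, in the methods' t-test and with no filter on dim probes. The KIAA0368 call was lost without pairing and when array 2 or array 3 was left out. As the mean over its probes KIAA0368 was -0.17 and did not pass. UCHL5, USP14, UBE3C and TXNL1 did not pass, with means from -0.10 to 0.05.

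VCP, the segregase that extracts ubiquitinated proteins, read -0.17, -0.34, -0.42 and -0.32 and fell by 0.31 (adjusted P 0.0225). Its cofactor UFD1L read 0.15, 0.27, 0.21 and 0.32 and rose by 0.23 (adjusted P 0.0406). The pair thus moved in opposite directions on every array, although VCP averaged 0.09 without lowess. The VCP call was lost without pairing, in the methods' t-test and when array 2 or array 3 was left out. The UFD1L call was lost whichever array was left out, in the methods' t-test and without pairing. NPLOC4, the partner of UFD1L, averaged 0.02. NFE2L1, the transcription factor that restores subunit genes when proteasome activity is low, read -0.15, -0.0045, -0.41 and -0.32 and did not pass. NFE2L2 averaged 0.04, and NFYA and NFYB averaged 0.14 and 0.19 without passing.

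RPS27A, which encodes ubiquitin fused to a ribosomal protein, read 0.13, 0.44, 0.43 and 0.38 and rose by 0.34 (adjusted P 0.0235). All 4 arrays were above 0, with array 1 the lowest. The call was lost without array 2, 3 or 4, and RPS27A passed in 7 of 15 alternatives. Its size varied widely, from 0.19 as the mean over its probes (not passed) to 0.65 with normexp and loess and 1.46 without lowess. The ubiquitin activating enzymes UBA1 and UBA6 averaged 0.05 and 0.04 and did not pass.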

How the data were processed

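Total RNA of 4 HMB-treated and 4 control ESC samples was amplified into labelled cRNA, which was hybridised to 4 two-colour arrays. The deposited ratios are log10 values of Cy5 over Cy3, made by the authors with Feature Extraction (10.10.1.1 per the file headers) by background subtraction and linear and lowess dye normalisation. The authors' spot intensity columns were used for brightness and for renormalisation. The summary table of the deposit held the same values (largest difference 0, column medians 0). The direction was taken from the sample titles, which place HMB-treated cells in Cy5.

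Ratios were multiplied by log2 of 10. Control spots and spots marked non-uniform or outlying (11 to 32 per array) were left out, and repeated spots were averaged. Testing required a ratio on at least 3 arrays and either Cy3 or Cy5 marked well above background on every array. Median signal over local background was 3.16 to 3.82 in Cy3 and 4.68 to 5.85 in Cy5. The number of arrays limits the precision.

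limma 3.58.1 (R 4.3.3) fitted each probe's mean with a moderated variance, two-sided, and P values were adjusted by Benjamini and Hochberg over all tested probes. A gene was represented by its tested probe of highest mean signal. Named genes were those that passed, PSMB5 to PSMB7, the extremes of each class, all PSME and PSMF genes and most list genes that passed; others were named for position, role or probes after their values were seen. Gene names are those of the array files, and 2 subunit probes had an accession in the RefSeq table, both with the same symbol. The members and lists were chosen with earlier results of these data known. The fit was tested on simulated data. The methods name a software default as their test, for which a plain t-test stands here. Alternatives covered dye normalisation, test, variance prior, pairing, filters, marked spots, source, probe choice, a minimum fold and each array left out. Promoter motifs were not analysed here, and some genes of the list of associated genes are counted but not reported here by name.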

Additional observations from a re-analysis of the deposited data

How the results depend on the processing

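Over 15 alternatives for each, PSME2 passed as lower in 11, PSME4 in 8 and PSMD12 in 7. Their mean ratios ranged from -0.56 to -0.06, from -0.38 to -0.06 and from -0.38 to -0.11, and their adjusted P from 0.00786 to 0.66, 0.00985 to 0.593 and 0.0204 to 0.311. The summary table, marked spots kept, both channels above background and the mean over a gene's probes gave the same 3 member calls, and the last gave 1 associated gene higher in place of 2 and 5 lower in place of 6. Under these settings 11.1% to 11.6% of all tested genes were lower and 10.3% to 11.0% higher, so the share of members that passed was again below that of the array.

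Without lowess, 12 members were higher (18.9% of all tested genes) and 0 lower (5.76%), 8 associated genes higher and 2 lower, and the member median was 0.27. PSMB6 (0.34), PSMB7 (0.31), PSMC4 (0.25), PSMD6 (0.16), PSME1 (0.10), PSME3 (0.25), KIAA0368 (0.0904), ZFAND5 (0.0262) and VCP (0.0946) were among the genes that turned there, and the cause was not tested. With normexp and loess 7 members were lower (12.3% of all tested genes), PSMA1 was -0.0256 and PSMB10 minus PSMB7 was 0.0185, and PSMB8 minus PSMB5 moved from -0.97 to -0.64. Without lowess PSMB10 minus PSMB7 was -0.17 (exact permutation P 0.25). With an intensity trend and robust prior 1 member (PSMG3) was higher and 5 lower (11.7% and 12.0% of all tested genes). The methods' t-test gave 1 member lower (1.46% of all tested genes), and 0 associated genes higher and 1 lower, and it does not pool the variance. With no filter on dim probes 3 members were lower (4.67% of all genes), none of them among the 3 above, and 3 associated genes were lower. An added minimum of 1.3-fold left 1 member lower, and 0 associated genes higher and 3 lower. The share of all tested genes under that minimum is not given here, so these counts cannot be set beside it.

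With no pairing within arrays (no replicate block), 1 member was lower (5.4% of all tested genes), and 0 associated genes higher and 1 lower. PSMB8 minus PSMB5 (-0.97) and PSMB9 minus PSMB6 (-0.64) each had an exact permutation P of 0.0286. This is the smallest P that a permutation of unpaired values from 4 arrays can give. It ignores that both genes of a pair were read on the same arrays, so no conclusion is drawn from it. The sign-flip permutation P of 0.125, taken within arrays, is the one that follows the design.

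With an array left out, members higher ranged from 0 to 1 (3.3% to 7.92% of all tested genes), members lower from 0 to 3 (5.51% to 9.67%), associated genes higher from 0 to 1 and lower from 1 to 5, each with 3 arrays left. PSMA1 ranged from -0.0161 to 0.0201, PSMB5 from -0.0002 to 0.0602, PSMC4 from -0.12 to 0.0437 and PSMB10 minus PSMB7 from -0.0463 to 0.0455. No dye swap, 1 slide and signal over background limit what small ratios can show.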

Other observations

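Proteasome probes filed under an accession in place of a symbol fell outside the naming rule. There were 9 such probes under 5 names, of which 7 probes under 3 names were tested and 0 passed in the limma fit. Their mean ratios ran from -0.20 to -0.08. The probe described as non-ATPase subunit 7 of the lid (ENSECAT00000021676) read -0.20, 0.05, -0.24 and -0.41, below 0 on 3 of 4 arrays. A further probe described as the PA28 alpha subunit (ENSECAT00000017709) read 0.08, 0.08, -0.32 and -0.27. It was above 0 on arrays 1 and 2, where the probe named PSME1 was at -0.10 and -0.09. The chaperone described as assembly chaperone 4 (ENSECAT00000014361), unlike PSMG1 to PSMG3, was below 0 on average with each of its 5 probes, the highest at -0.08. Array 1 carried these means, at -0.34 to -0.28, and array 4 was above 0 with every probe.

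Of 58 values over the 4 arrays (the tested members, the immunoproteasome genes, the named associated genes that passed, the pair differences and the class medians), 0 had an array set apart from the rest by Dixon's test, which by chance marks about 1 in 20. With 4 arrays this test has little power, so it cannot show that no array stood apart. The calls did depend on single arrays, as given above.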
